A study of Mus musculus with 17 samples.

Results

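The genes described here are the isoform-rich genes of a transcript annotation that the authors assembled de novo from their own RNA-seq reads of mouse male germ cells. A gene was taken as isoform-rich where the assembly gave it 6 or more transcripts, which held for 1245 of the 27289 de novo genes (4.56%) and for 9946 of the 53859 transcripts. The number of transcripts is a property of the assembly, and no stage level entered the choice. At the edge of the rule, 462 genes had exactly 6 transcripts and were taken, and 863 genes had 5 and were not. Of the isoform-rich genes 1022 had 6 to 9 transcripts and 223 had 10 or more, with a maximum of 27. They were set beside the 9540 genes that had a single transcript of several exons.

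The cells came from testes of male C57BL/6JRj mice that carry a wild-type label and were sorted by flow cytometry after staining of their DNA. The sorted stages were leptotene/zygotene spermatocytes (LZ, early meiotic prophase), pachytene/diplotene spermatocytes (PD, late meiotic prophase), haploid round spermatids (RS), and elongating spermatids at an early (EES) and a late (LES) step of nuclear elongation, with 3 libraries each and a labelled age of 3 months. These 15 libraries were stained with Hoechst 33342 and SYTO 16. The other 2 libraries had Hoechst 33342 as their only stain and no replicate. They hold round spermatids from juveniles at 23 days postpartum (RS23) and elongating spermatids sorted by a Prm1-EGFP reporter (PrmES). Their labels repeat the age of 3 months and the wild-type genotype, which differs from their titles, and the titles were followed here. No source used here ties the 3 libraries of each stage to different mice, so the spread that the p-values rest on may be technical.

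A gene can give rise to several transcripts by starting transcription at different promoters, by joining exons in different combinations and by ending at different polyadenylation sites. The testis is known for a rich repertoire of such isoforms: many genes that are active in somatic cells use a further promoter in meiotic or haploid germ cells, often inside the gene, and the transcript made there can lack the first coding exons. Transcription stops as the spermatid nucleus is compacted, so that elongating spermatids rely on mRNA that was made earlier and stored. In pachytene spermatocytes the X and Y chromosomes are transcriptionally silenced.

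For 622 of the isoform-rich genes at least 1 start lay within 100 bases of a transcript start in RefSeq, so that its promoter sequence could be read; for 63 this held at 2 or more starts. The sequences below are RefSeq windows of the GRCm38.p6 build, from 110 bases before the annotated start to 20 bases from it, in the direction of the gene. They show genes with promoters far apart and a motif shared by several promoters, and were chosen after their values were seen. Capitals mark matches to GGGCGG (a GC box), CCAAT, TGACGTCA (the palindromic cyclic AMP response element, CRE) and TGATGTCA, on both strands. TATAAA (strand of the gene) and CAACTG (both strands) were searched in the same way. Matches of different motifs did not share letters in these windows. Starts are numbered from the most upstream one.
Spata6 start 1, chr4:111719900-111720029 (plus strand): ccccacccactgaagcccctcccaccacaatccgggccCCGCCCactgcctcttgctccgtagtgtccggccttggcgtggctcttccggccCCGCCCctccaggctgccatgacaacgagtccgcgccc
Spata6 start 2, chr4:111777487-111777616 (plus strand): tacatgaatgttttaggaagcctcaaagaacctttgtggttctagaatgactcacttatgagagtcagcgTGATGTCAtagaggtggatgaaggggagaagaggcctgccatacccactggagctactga
Aven start 1, chr2:112492854-112492983 (plus strand): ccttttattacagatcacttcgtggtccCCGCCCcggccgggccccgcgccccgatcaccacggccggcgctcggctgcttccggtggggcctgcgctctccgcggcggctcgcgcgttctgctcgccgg
Aven start 4, chr2:112618307-112618436 (plus strand): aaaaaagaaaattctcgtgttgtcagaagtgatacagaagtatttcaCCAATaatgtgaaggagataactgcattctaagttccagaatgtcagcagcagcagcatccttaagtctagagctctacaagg
Asb8 start 2, chr15:98165559-98165688 (minus strand): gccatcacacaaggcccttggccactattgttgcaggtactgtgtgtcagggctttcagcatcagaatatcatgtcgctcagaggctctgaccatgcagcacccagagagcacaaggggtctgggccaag
Asb8 start 3, chr15:98145683-98145812 (minus strand): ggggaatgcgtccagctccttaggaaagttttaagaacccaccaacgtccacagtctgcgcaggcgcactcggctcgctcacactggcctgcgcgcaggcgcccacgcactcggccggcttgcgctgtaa
Cep112 start 12, chr11:108682499-108682628 (plus strand): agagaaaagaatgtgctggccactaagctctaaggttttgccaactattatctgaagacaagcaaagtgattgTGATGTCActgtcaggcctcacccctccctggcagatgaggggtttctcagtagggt
Akap4 start 1, chrX:7067405-7067534 (plus strand): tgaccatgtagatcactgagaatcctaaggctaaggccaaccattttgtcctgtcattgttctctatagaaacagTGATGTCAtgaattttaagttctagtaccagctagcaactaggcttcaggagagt
Akap3 start 3, chr6:126852988-126853117 (plus strand): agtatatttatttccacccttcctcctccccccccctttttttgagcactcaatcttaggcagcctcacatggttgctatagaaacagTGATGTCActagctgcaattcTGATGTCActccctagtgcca
Gsg1 start 3, chr6:135254317-135254446 (minus strand): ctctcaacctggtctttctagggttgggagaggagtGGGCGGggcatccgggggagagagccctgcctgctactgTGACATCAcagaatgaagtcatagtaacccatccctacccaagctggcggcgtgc
Spata7 start 2, chr12:98628032-98628161 (plus strand): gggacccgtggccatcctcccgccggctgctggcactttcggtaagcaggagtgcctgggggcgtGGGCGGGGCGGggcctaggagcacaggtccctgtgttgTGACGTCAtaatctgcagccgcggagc

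Within a gene these RefSeq windows differed in base composition. The upstream window of Spata6, a gene of the sperm connecting piece, held 16 CpG in its 300 bases (250 before the start to 50 after it), and the window at its downstream start held 3. Aven, an inhibitor of apoptosis, had 26 CpG upstream and 2 downstream. Asb8, an ankyrin repeat protein with a SOCS box, showed the opposite order, with 4 CpG at start 2 and 24 at start 3. The assembled starts lay between 3 and 94 bases from the RefSeq starts of these 3 genes. Several of them rest on 1 assembled transcript. In Spata6, 11 of 12 transcripts began at start 1 and 1 at start 2. In Aven, 1 of 10 began at start 1 and 6 at start 4. In Asb8, starts 2 and 3 had 1 of 6 transcripts each, and 4 began at start 1, which has no window. Start 2 of Spata6 and start 2 of Asb8 lay in an exon of another transcript. At the level of the whole gene, all 3 genes were highest in elongating spermatids. Eif5a, taken with them by its level but not printed above, differed from them. It had 21 CpG at start 2 and 46 at start 4. Its mean was highest in PD, with 113.9 RPKM, against 73.3 in EES and 70.5 in LES. Spata6 read 8.09, 7.16 and 14.1 RPKM (reads scaled to exon length and library size) in the LZ libraries, 22.05, 20.1 and 21.8 in PD, 30.4, 30.6 and 36.6 in RS, 243, 151 and 239 in EES and 247, 237 and 262 in LES. Its LZ, PD, RS and EES libraries did not overlap from 1 stage to the next. Asb8 stayed between 4.89 and 11.98 RPKM in LZ, PD and RS and read 83.6, 37.1 and 82.1 in EES. A gene-level value does not say which promoter was in use, since the reads of all transcripts of a gene are summed over its joined exons.

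Over all 689 RefSeq windows at starts of isoform-rich genes, the median number of CpG was 18, against 7 in all 32851 RefSeq windows and 16 in the 1782 windows at starts of single-transcript genes. The most upstream starts of genes with several starts had a median of 22 CpG (211 windows) and their further downstream starts 18 (355 windows). A GC box stood in 49.1% of the windows of isoform-rich genes, 52.5% of those of single-transcript genes and 35.7% of all windows. CCAAT was in 37.0%, 38.5% and 37.4%, CAACTG (the MYB core) in 14.4%, 13.5% and 13.7%, and TATAAA in 4.64%, 4.99% and 8.32% of these windows. In genes with several starts, the CRE TGACGTCA was found in 18 of the 355 windows at further downstream starts (5.07%). It was in 1 of the 211 at their most upstream starts (0.474%), and in 5 of the 131 windows of genes with 1 start (3.82%). The share was 3.48% over all windows of isoform-rich genes, 3.37% in those of single-transcript genes and 1.79% in all RefSeq windows.

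The motif TGATGTCA, which differs from the CRE by 1 letter, was added after it had been seen in the printed windows of Spata6, Cep112 and Akap4. It stood in 40 of the 689 windows of isoform-rich genes (5.81%), in 5.22% of those of single-transcript genes and in 3.62% of all RefSeq windows. It was in 6.16% of the windows at most upstream starts of genes with several starts, 5.35% of those further downstream and 6.87% of those of genes with 1 start. Of the 39 isoform-rich genes with this motif at a start, 29 (74.4%) had their highest stage mean in EES or LES. The same held for 213 of the 558 genes whose windows had neither motif (38.2%), and for 9 of the 24 genes with TGACGTCA (37.5%). The median log2 fold change from PD to RS was 2.52 in the genes with TGATGTCA and 0.18 in those with neither motif, and from RS to EES it was 2.48 against -0.48. Among single-transcript genes the share with the highest mean in EES or LES was 39.4% with TGATGTCA (71 genes) and 16.5% with neither motif (1361 genes). The median log2 fold change from PD to RS was 3.27 in these 71 genes and -0.03 in the 1361. From RS to EES the median of these 71 genes was -0.75, with 26 rises and 31 falls, and that of the 1361 was -1.24. The motif was picked from genes that were high in elongating spermatids, so these counts are a description and carry no test. Akap3 and Gsg1 hold it at start 3, 22 and 35 bases before the RefSeq start. Their assembled starts lay 12 and 50 bases upstream of these RefSeq starts, so that in Gsg1 the motif lies downstream of the assembled start. Both of these starts lie in an exon of another transcript of the gene. In Spata6 (start 2) and Akap4 (start 1) the assembled starts lay 94 and 41 bases upstream of the RefSeq starts. The motif stands 40 and 35 bases before those RefSeq starts, and so also downstream of the assembled start. Akap3, a protein of the fibrous sheath of the sperm tail, read 1.71, 1.54 and 3.09 RPKM in PD, 46.2, 54.8 and 53.5 in RS and 84.3, 164 and 109 in EES. Gsg1, a germ cell gene, read 3.97, 3.82 and 5.47 RPKM in PD, 22.3, 30.7 and 31.3 in RS and 547, 264 and 489 in EES. In both genes the lowest library of each later stage was above the highest of the stage before. In Spata7, a cilium gene, 15 of 16 transcripts begin at the second start. Spata7 has TGACGTCA there, 7 bases before the RefSeq start. It read 3.46, 3.11 and 4.14 RPKM in PD and 258, 190 and 282 in EES.

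The isoform-rich genes were long, mostly coding genes with many exons. By exon overlap on the same strand with GENCODE M21, 873 of them matched 1 reference gene, 318 (25.5%) matched 2 or more and 54 (4.34%) matched none. Of all de novo genes 35.5% matched none, and of the single-transcript genes 37.2%. The matched gene was protein-coding for 963 isoform-rich genes (77.3%) against 47.1% of the single-transcript genes, and a lncRNA for 201 (16.1%). The longest transcript of an isoform-rich gene had a median of 10 exons and its joined exons covered a median of 6388 bases, against 3 exons and 1563 bases in single-transcript genes. The assembly gave 722 of the isoform-rich genes more transcripts than the 1 GENCODE gene they overlap most. Of these, 210 match 2 or more reference genes, and transcripts of their other matches were not counted. Of the 23415 introns of isoform-rich genes, 67.1% are also in GENCODE, against 80.6% of those of single-transcript genes. The share was 56.9% in the genes with 10 or more transcripts and 34.4% in the lncRNA genes. Exons of 824 isoform-rich genes (66.2%) overlapped an exon of a de novo gene on the opposite strand, against 30.4% of single-transcript genes. Whether reads were counted by strand is not given in the sources used here, so reads of such partners may not be told apart. Of the 54 named isoform-rich genes 36 have such an overlap, among them Cep112, Odf2, Glrx2, Tsc22d1 and Lyar. Akap4, Sox5, Scml2 and Chchd3 are among those that have none. Outside these 54, the promoter genes Aven, Asb8, Eif5a, Akap3 and Gsg1 have such an overlap, and Spata6 and Spata7 have none.

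**Figure D1:**
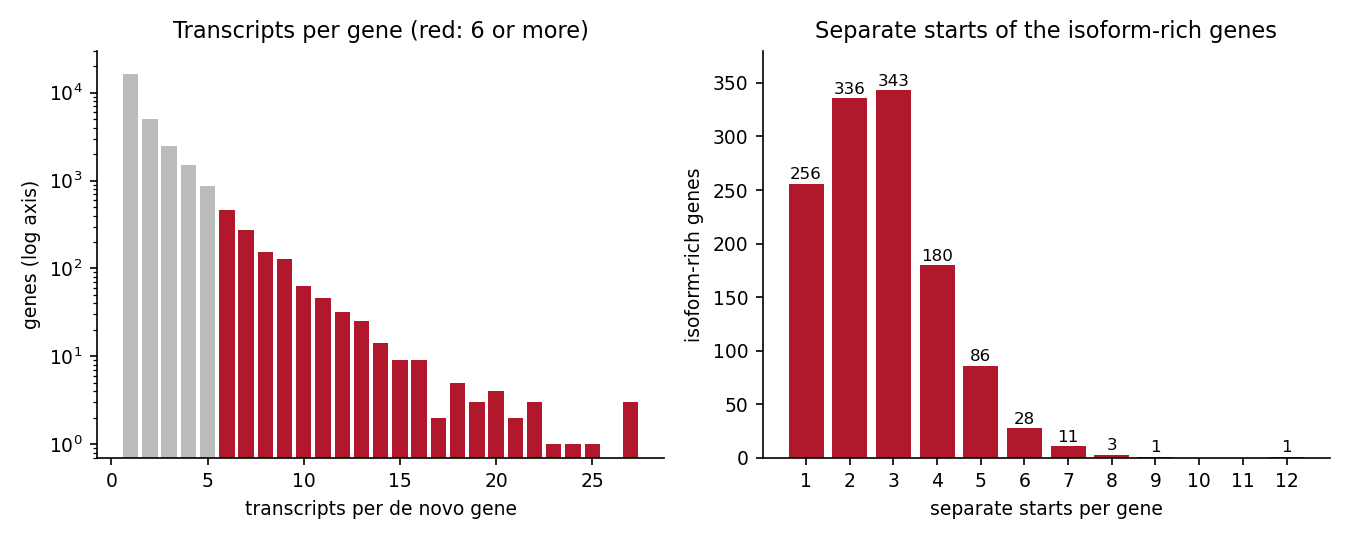
Left, number of de novo genes by their number of transcripts, on a log axis, with the isoform-rich genes in red. Right, number of isoform-rich genes by their number of separate starts; 3 starts were the most frequent, with 343 genes.

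Most of these genes had more than 1 place of transcription start. Transcript 5′ ends of a gene that lay within 100 bases of their neighbour were joined into 1 start, which gave 3397 separate starts and a median of 3 per gene. As the bar plot of starts shows, 989 isoform-rich genes (79.4%) had 2 or more starts and 256 had 1. In genes with 2 to 5 transcripts, 47.1% had 2 or more starts. The outermost starts of the 989 genes were a median of 12873 bases apart, with quartiles of 1425 and 45252 bases. Neighbouring starts were a median of 1611 bases apart; of the 2152 gaps 44.8% were under 1000 bases and 31.0% were 10000 bases or more. A start lay within 100 bases of a GENCODE transcript start in 35.5% of cases, 41.4% for the most upstream start and 32.1% for the further downstream ones. None of the starts of 359 isoform-rich genes lay that near to a GENCODE start, 1 start did in 618 genes and 2 or more did in 268. With only starts over 100 bases from every GENCODE start counted, 644 genes had 2 or more.

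Starts inside the gene fell into different kinds. Of the 2152 further downstream starts, 1370 (63.7%) lay in an intron of another transcript of the gene and 782 (36.3%) in an exon. A first exon with a splice donor that no transcript from elsewhere in the gene uses was found at 80.5% of the starts in introns and 19.4% of those in exons. Such an own first exon is the form that an alternative promoter takes in an annotation, whereas a start inside an exon of a longer transcript can also be the end of an incompletely assembled transcript, and the assembly does not tell these apart. By this measure 618 genes (49.6%) had 2 or more starts with an own first exon. The most upstream start carried a median of 4 transcripts and a further downstream start a median of 1.

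Splicing and transcript ends varied as well. An exon skipped by another transcript was present in 1071 isoform-rich genes (86.0%) and a retained intron in 578 (46.4%). A splice acceptor joined to more than 1 donor was found in 1230 (98.8%), and a donor joined to more than 1 acceptor in 1198 (96.2%). In genes with 2 to 5 transcripts these shares were, in the same order, 38.6%, 24.9%, 74.3% and 58.9%. Both junction counts can also arise from a skipped exon or from differing first or last exons, so they do not count alternative splice sites alone. The median number of separate transcript ends was 3, and 142 genes (11.4%) had a single end. These shares are counted over genes with more transcripts and are a description.

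**Figure D2:**
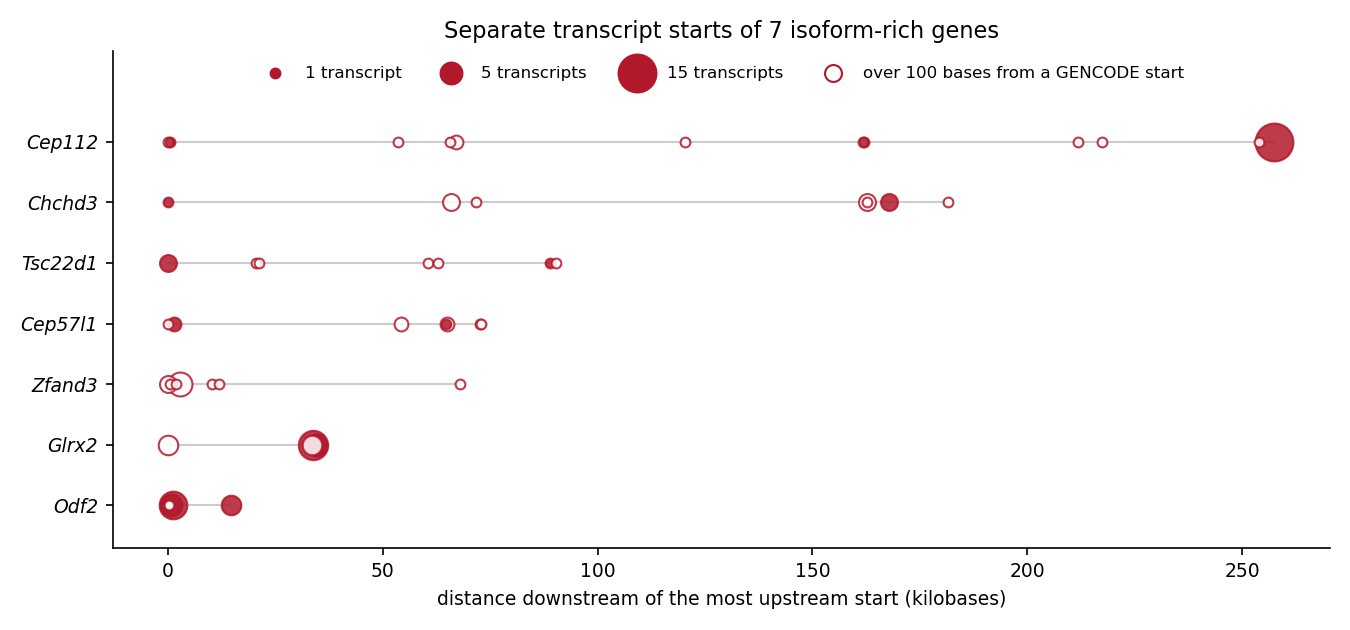
Separate transcript starts of 7 isoform-rich genes, as the distance in kilobases downstream of the most upstream start. The area of a circle follows the number of transcripts that begin there and filled circles lie within 100 bases of a GENCODE start; the last of the 12 starts of Cep112 carries 15 of its 27 transcripts.

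The genes with the most transcripts and starts differed in where their transcripts began. Cep112, a coiled-coil protein of the centrosome on chromosome 11 (108425043 to 108864726, GRCm38), had 27 transcripts and 12 starts, the most of both among genes of a single reference gene. Of its transcripts 15 began at the twelfth start, 257541 bases downstream of the first and 16 bases from a GENCODE start. That start lies in an exon of another transcript and has no own first exon. Its window, printed above, holds TGATGTCA 37 bases before the RefSeq start. Chchd3, a protein of the mitochondrial inner membrane, had 7 starts over 181499 bases, each with 1 to 3 of its 13 transcripts. Tsc22d1, a leucine zipper transcription regulator, had 7 starts over 90383 bases; 3 of its 9 transcripts began at the most upstream one. Glrx2, the mitochondrial glutaredoxin, had 22 transcripts, of which 18 began at 3 starts between 33462 and 34380 bases downstream of the first. Odf2, the outer dense fibre protein that is also a component of centriole appendages, had 19 transcripts and 5 starts; 15 of the transcripts began within 1091 bases of the most upstream start and 4 began 14644 bases downstream of it. Many transcripts did not require many starts: all 21 transcripts of Fam166a began at 1 start, which lay 4052 bases from the nearest GENCODE start, and so did all 20 of Dscaml1, a cell adhesion molecule.

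Library totals, read from the smallest step between values, were 90.6 to 159.2 M reads. Reads summed over de novo genes came to 54.2 to 107.8% of these totals and exceeded 100% in EES replicates 1 and 3 and in all 3 LES libraries, so some reads may be counted for more than 1 gene. LZ replicate 3 and EES replicate 2 stood farthest from the other libraries of their stage, with a median absolute log2 distance from their mean of 0.53 and 0.93, against 0.32 and 0.39 in LZ and 0.64 and 0.38 in EES. Of the stage markers, 7 of 8 were found among the de novo genes: Dmc1 and Sycp3 were highest in LZ, Piwil1 in PD, Ccna1 in RS, Acrv1 in EES and Tnp1 and Odf1 in LES. Ccna1 had been listed as a marker of PD and Acrv1 of RS, and each had its highest mean in the stage after. Ccna1 read a mean of 56.5 RPKM in PD and 137.9 in RS. The EES mean of Acrv1 was 39.2 ± 56.9 RPKM, against 33.8 ± 4.97 in RS (SD, n = 3), so that its place between these stages is not set by these libraries. Ccna1, cyclin A1, was the only isoform-rich one, with 6 transcripts. Of 26 markers of Sertoli, Leydig, myoid, macrophage, endothelial and erythroid cells 14 were found and none was isoform-rich; no endothelial marker was found.

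Levels of the isoform-rich genes were tested at the gene level across the 5 stages. Testing was limited to genes that had 1 RPKM or more in 3 or more libraries of the 15, which 1243 of the 1245 isoform-rich genes, 6669 of the 9540 single-transcript genes and 21515 of all genes did. The fit was made with limma over all tested genes, on the deposited log2 values (log2 of 100 times RPKM plus 1, a pseudocount of 0.01 RPKM). A gene counted as changed at a Benjamini-Hochberg adjusted p under 0.05 together with a log2 fold change of 1 or more in size. By that rule 58.9% of all tested genes changed from LZ to PD, 42.7% from PD to RS, 70.4% from RS to EES and 0% from EES to LES, and the 3 libraries of a stage did not overlap those of the next in 74.3%, 71.7%, 76.2% and 7.99% of them. In isoform-rich genes the libraries did not overlap in 83.4%, 71.6%, 79.7% and 4.59%. Mean levels over the 15 libraries had a median of 8.36 RPKM in isoform-rich genes, 1.40 in single-transcript genes and 2.31 in all tested genes. The level and the number of transcripts rest on the same reads, so their relation is a description.

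**Figure D3:**
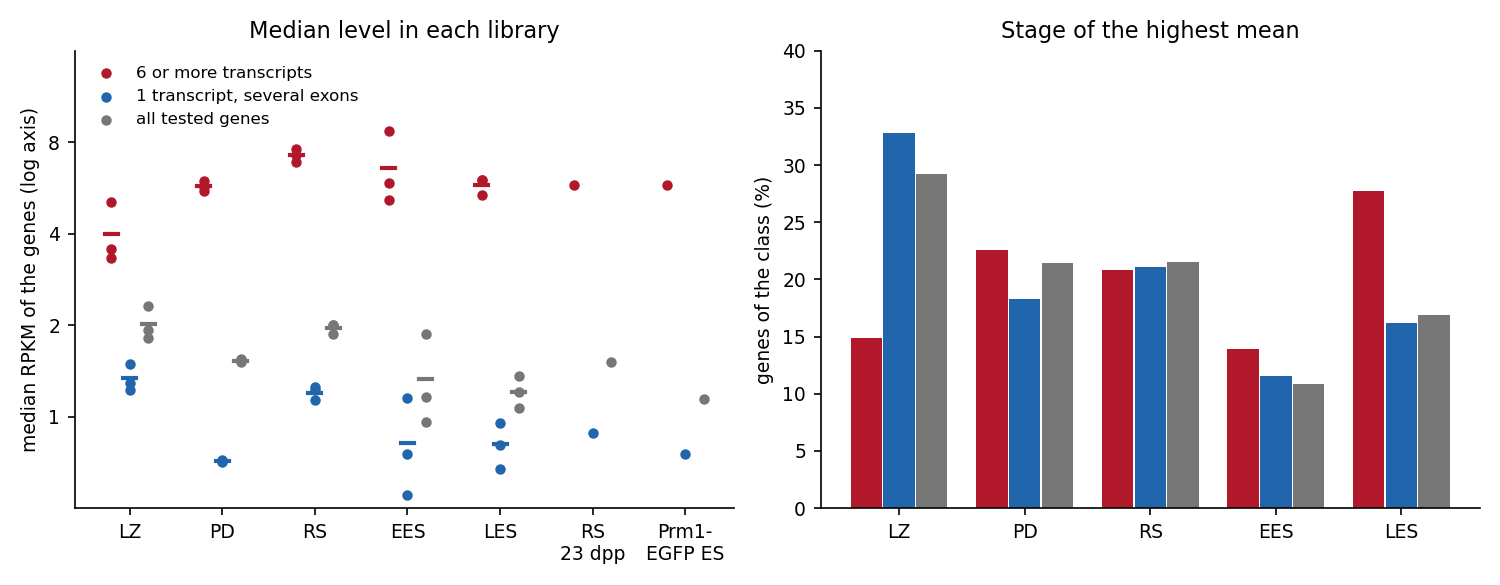
Left, median RPKM over the tested genes of a class in each library, on a log axis; points are libraries, bars the mean of the 3 libraries of a stage, and the juvenile round spermatid and Prm1-EGFP libraries are single. Right, percent of the tested genes of a class whose highest stage mean lay in each stage; 14.9% of isoform-rich and 32.8% of single-transcript genes were highest in LZ.

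The level of the isoform-rich genes was lowest in LZ. Their median level was 3.56, 3.33 and 5.08 RPKM in the LZ libraries, 5.71, 5.51 and 5.96 in PD, 6.90, 7.25 and 7.58 in RS, 5.17, 8.72 and 5.88 in EES and 6.02, 5.36 and 6.03 in LES. The LZ, PD and RS libraries did not overlap, and EES replicate 2 was above all others. It was 5.78 RPKM in RS23 and in PrmES. The share of all reads in de novo genes that fell on isoform-rich genes was 12.4 to 13.7% in LZ, and in PD it was 18.2 to 18.7%, with 18.4 to 19.3% for RS, 22.9 to 25.2% for EES and 24.7 to 25.2% for LES. These are shares of summed gene reads, in which reads at overlapping genes may be counted more than once. Single-transcript genes held 16.8 to 18.3% in LZ and 10.8 to 10.9% in LES. The shares are of RNA: in sorted cells, fewer cells of a kind and less RNA per cell cannot be told apart.

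The highest stage mean lay in LZ for 14.9% of isoform-rich genes, in PD for 22.6%, in RS for 20.8% and in EES or LES for 41.7%. In single-transcript genes these shares were 32.8%, 18.3%, 21.1% and 27.8%, and in all tested genes EES or LES took 27.7%. EES and LES were joined here because their split changed when LZ replicate 3 and EES replicate 2 were left out together. With these 2 libraries the split was 13.9% and 27.8% of isoform-rich genes, and without them it was 26.4% and 14.2%, while the sum was 40.6%. LZ replicate 3 does not enter the means of EES and LES. Among genes with a mean level of 32 RPKM or more, the highest mean lay in EES or LES in 69.5% of 210 isoform-rich genes, 49.1% of 220 single-transcript genes and 54.7% of all 1353. At 8 to 32 RPKM these shares were 38.7%, 20.7% and 26.0%, and under 2 RPKM they were 33.3%, 30.6% and 28.2%. The mean level is taken over the same 15 libraries, EES and LES among them. A gene can thus reach the top class through these stages alone, and the shares by level are a description. Of the genes with 10 or more transcripts, 6.73% were highest in LZ and 56.1% in EES or LES.

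**Figure D4:**
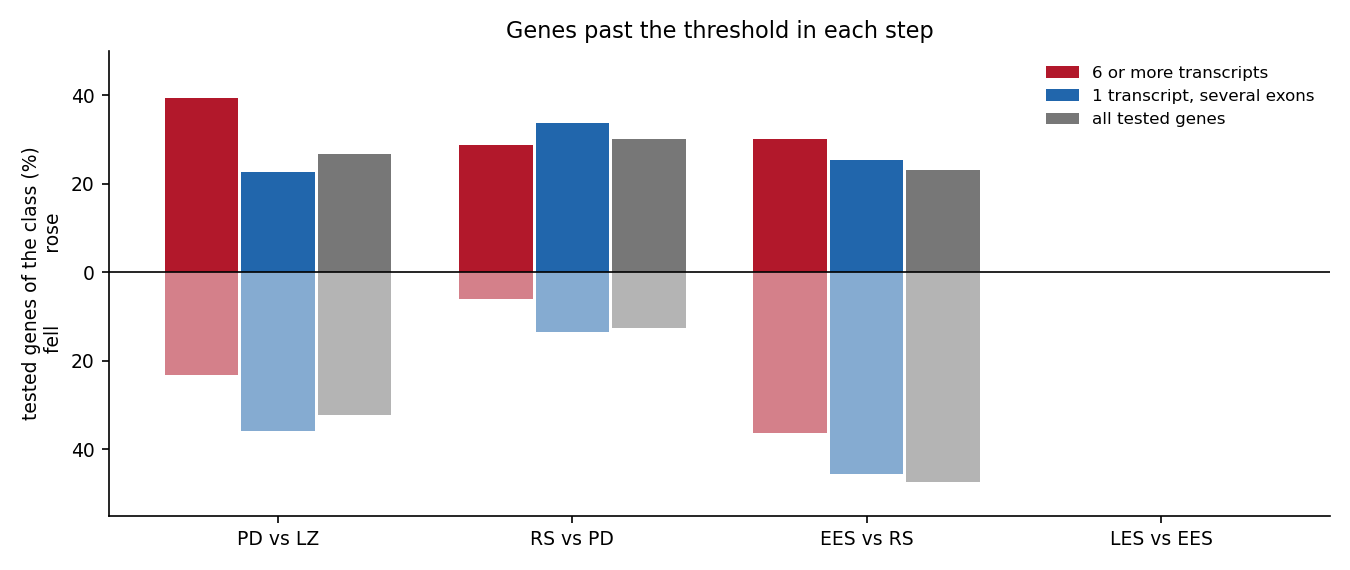
Percent of the tested genes of a class that rose (above the line, full colour) or fell (below it, pale colour) past the threshold in each step between neighbouring stages. Isoform-rich genes rose in 39.4% and fell in 23.3% of cases from LZ to PD, and no gene of any class passed from EES to LES.

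Over the 5 stages, 1189 of 1243 isoform-rich genes (95.7%) passed the F test with stage means that spanned 1 or more on the log2 scale, against 97.2% of all tested genes. The share was near the background. The median range was 3.61 in isoform-rich genes, 4.86 in single-transcript genes and 4.49 in all. From LZ to PD, 490 isoform-rich genes rose (39.4%, against 26.6% of all tested genes) and 290 fell (23.3%, against 32.3%). The median log2 fold change was 0.43, against -0.48 in single-transcript genes and -0.23 in all. Without LZ replicate 3 and EES replicate 2, 539 rose and 278 fell. Summed levels of 7 Sertoli cell markers, none of them isoform-rich, were 98.5 to 151 RPKM in LZ and 1.22 to 1.77 in PD; their part in the falls was not tested. From PD to RS 358 rose (28.8%, against 30.2%) and 76 fell (6.11%, against 12.6%), with medians of 0.24 in isoform-rich genes and 0.23 in all. From RS to EES 373 rose (30.0%, against 23%) and 451 fell (36.3%, against 47.3%), and the median was -0.30, against -0.996 in single-transcript genes and -1.05 in all. Without LZ replicate 3 and EES replicate 2, 370 rose and 81 fell from PD to RS, and 379 rose and 514 fell from RS to EES. The same Sertoli markers summed to 1.79 to 2.66 RPKM in RS and 5.48 to 18.05 in EES. From EES to LES none of the 1243 passed in limma, as none of all 21515 did (0%), and an unadjusted p under 0.05 was found for 6 of the 1243 and for 1088 of all 21515. Scaling moved all genes together: after centring of the libraries on their medians, the median of all tested genes went from -0.23 to 0.16 from LZ to PD, from 0.23 to -0.13 from PD to RS and from -1.05 to -0.43 from RS to EES, and that of isoform-rich genes from 0.43 to 0.83, from 0.24 to -0.12 and from -0.30 to 0.32. From RS to EES 45.3% of the calls in isoform-rich genes were rises, and 58.5% with median centring. From PD to RS the share was 82.5%, with 66.6% under median centring and 72.4% under quantile normalization. With quantile normalization the share was 54.2% from RS to EES. Rises from PD to RS were no more frequent in isoform-rich genes (28.8%) than in single-transcript genes (33.7%) or in all (30.2%); falls made up 6.11%, 13.6% and 12.6%.

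Along the first 3 steps, the most frequent course of isoform-rich genes was a rise from LZ to PD, no call from PD to RS and a fall from RS to EES, in 201 genes (16.2%), against 11.3% of single-transcript genes and 13.1% of all. A fall from LZ to PD followed by 2 rises was found in 165 (13.3%), against 7.93% of single-transcript genes and 8.85% of all. In 111 genes (8.93%) no step passed, against 3.37% and 5.29%. AW554918, with 12 transcripts and 8 starts, was among the genes without a call in any step: it ranged from 4.33 to 5.89 RPKM over all 15 libraries.

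**Figure D5:**
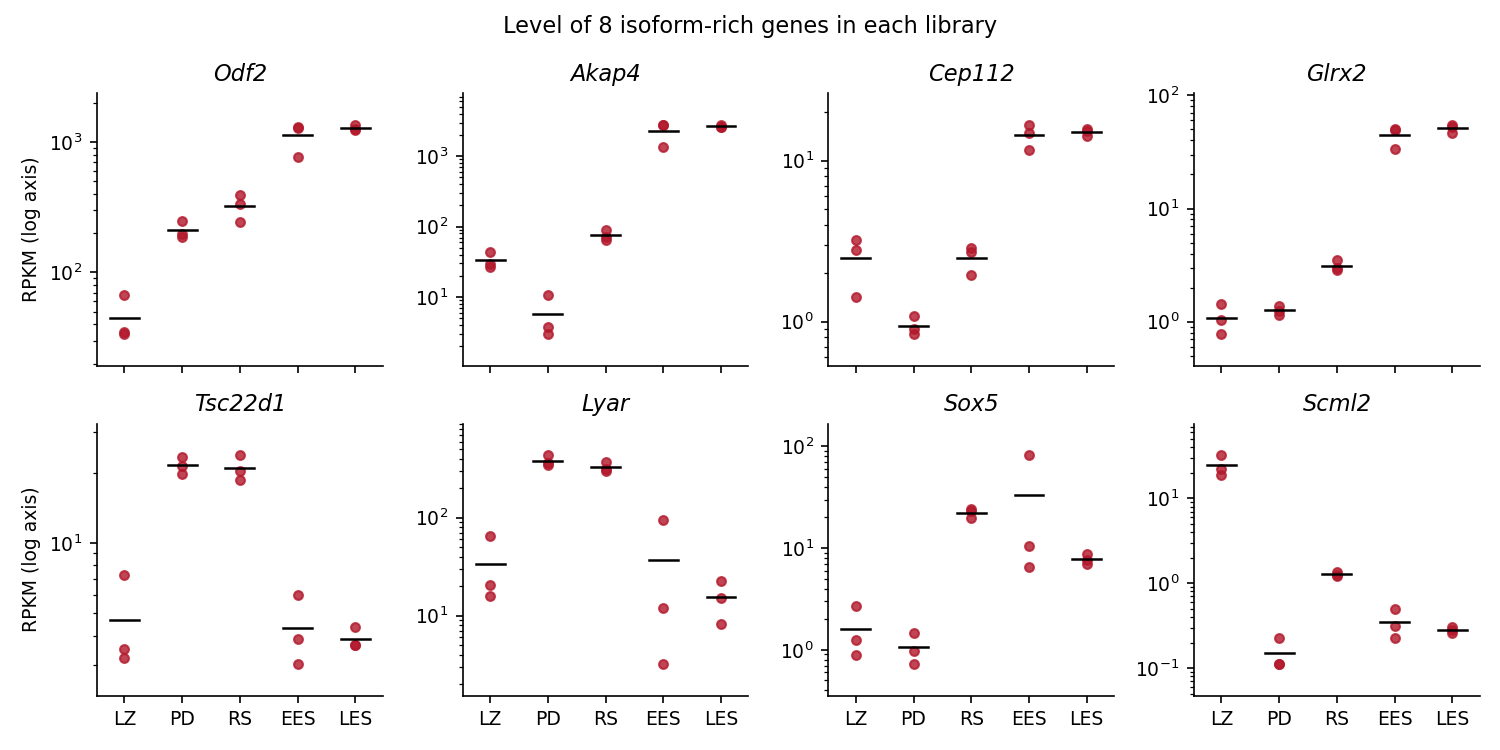
RPKM of 8 isoform-rich genes in each library of the 5 stages, on a log axis with its own range in each panel; points are libraries and bars stage means. Odf2, Akap4, Cep112 and Glrx2 were highest in EES and LES, Tsc22d1 and Lyar in PD and RS, and Scml2 in LZ.

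Several of the genes with the most transcripts rose at the entry into elongation. Cep112 read 2.80, 3.20 and 1.43 RPKM in LZ, 0.837, 0.907 and 1.09 in PD, 2.70, 1.94 and 2.85 in RS, 14.9, 11.6 and 16.6 in EES and 15.6, 15.3 and 14.3 in LES. Its EES and LES libraries were all above those of the earlier stages, with a log2 fold change from RS to EES of 2.52 ± 0.29 (SE, limma adjusted p = 5.2e-06). Glrx2 stayed between 0.777 and 3.54 RPKM up to RS and read 49.5, 33.7 and 50.6 in EES, a log2 fold change of 3.82 ± 0.24 (limma adjusted p = 8.0e-08). Odf2 rose in 2 steps. It read 33.6, 34.7 and 66.9 RPKM in LZ, 196, 186 and 247 in PD, 245, 393 and 335 in RS, 1290.1, 773 and 1305 in EES and 1267, 1351 and 1241 in LES. The rise from LZ to PD was 2.28 ± 0.31 and that from RS to EES 1.78 ± 0.31 (log2 ± SE, limma adjusted p = 2.2e-05 and 1.7e-04), the latter 0.48 and short of the threshold with quantile normalization. Dscaml1 was at or under 0.452 RPKM in all 9 libraries before elongation and at 21.5, 8.49 and 17.3 in EES. Usp44, a deubiquitinase with 19 transcripts, Chchd3 and Zfand3, a zinc finger protein, also rose from RS to EES, by 2.07 ± 0.21, 2.87 ± 0.18 and 2.40 ± 0.21 on the log2 scale (limma adjusted p from 8.5e-08 to 2.2e-06).

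Rises and falls were ranked among isoform-rich genes of 1 reference gene without a clone-based symbol, with no overlap between the libraries of both stages and 8 RPKM or more in the higher one. Within that set the largest rises from RS to EES were in Paqr5, a membrane progestin receptor, Dnajb8, a heat shock protein 40 co-chaperone, and Spata3. Paqr5 read 1.10, 1.80 and 2.62 RPKM in RS and 187, 80.5 and 171 in EES. Dnajb8 read 2.45, 3.50 and 4.19 RPKM in RS and 249, 114 and 241 in EES. Each of these genes had lower values in EES replicate 2 than in the other 2 EES libraries, and read from 152 to 273 RPKM in LES. Their log2 fold changes were 6.30 ± 0.51, 5.84 ± 0.43 and 5.79 ± 0.47 (limma adjusted p of 3.6e-07, 1.9e-07 and 3.4e-07). In PrmES, sorted by another marker, Paqr5 read 35.9 RPKM and Spata3 18.005, both under every EES and LES library, with a single library behind each value.

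Tsc22d1 and Lyar had the opposite course. Tsc22d1 read 3.50, 3.20 and 7.30 RPKM in LZ, 21.4, 19.8 and 23.4 in PD, 18.6, 23.8 and 20.4 in RS and 3.01, 5.98 and 3.88 in EES. It rose by 2.30 ± 0.31 from LZ to PD and fell by 2.34 from RS to EES on the log2 scale (limma adjusted p = 1.9e-05 and 1.8e-05). Lyar, a nucleolar protein, read 342, 361 and 437 RPKM in PD, 298, 369 and 311 in RS and 3.18, 95.3 and 11.8 in EES, with EES replicate 2 far above the other 2. Cd63, a tetraspanin, and Ptges3, a co-chaperone of heat shock protein 90, were, with Lyar, the largest falls of this step in the ranked set: Cd63 fell by 5.13 and Ptges3 fell by 4.39 on the log2 scale (limma adjusted p = 1.4e-05 and 2.4e-05). Cd63 read 12.5, 11.1 and 9.51 RPKM in RS and 0.106, 1.33 and 0.187 in EES.

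From LZ to PD the largest rises of the ranked set were in Aqp9, a channel for water and glycerol, Dapp1 and Stpg4. Aqp9 read 0.817, 0.974 and 5.01 RPKM in LZ and 50.3, 45.8 and 54.7 in PD, a log2 fold change of 4.97 ± 0.58 (limma adjusted p = 5.5e-06); LZ replicate 3 was the highest LZ library in all 3 genes. Ldhc, the germ cell lactate dehydrogenase, had the highest PD mean of the named genes, with 35.1, 29.9 and 178 RPKM in LZ and 1114, 1044 and 1062 in PD. Tex101, a surface protein of germ cells, and Sun1, which anchors meiotic telomeres in the nuclear envelope, were among the genes with their highest mean in LZ. Tex101 read 196, 161 and 212 RPKM in LZ, 29.6, 25.8 and 16.5 in PD and 2.48, 4.51 and 3.10 in RS.

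From PD to RS the largest rises of the ranked set were in Ccdc63, a protein of sperm flagella, Catsper4, a pore subunit of the sperm calcium channel, and Kcne3, a potassium channel subunit. Catsper4 read 0.287, 0.365 and 0.847 RPKM in PD and 14.5, 21.6 and 17.4 in RS, a log2 fold change of 5.27 ± 0.79 (limma adjusted p = 8.6e-05). All 3 genes were higher in EES replicate 2 than in any other library, with 36.7 RPKM for Catsper4 against 1.97 and 3.62 in the other 2 EES libraries. The largest falls of the ranked set were in Ccne2, cyclin E2, Baz1a, a subunit of chromatin remodelling complexes, and Mllt10, a partner of the histone methyltransferase Dot1l. Baz1a read 39.3, 45.1 and 49.3 RPKM in PD and 4.77, 3.55 and 5.82 in RS, and fell by 3.26 on the log2 scale (limma adjusted p = 9.5e-07). It had risen by 2.30 ± 0.28 from LZ to PD.

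The X chromosome held few isoform-rich genes: 9 (0.723%), against 439 single-transcript genes (4.60%) and 852 of all de novo genes (3.12%), and no isoform-rich gene lay on Y. All 9 fell from LZ to PD, with a median log2 fold change of -5.22, and all 9 rose from PD to RS, with a median of 4.42. From RS to EES 5 rose and 2 fell, with a median of 1.36. Of the 334 tested single-transcript genes of X, 252 fell and 245 rose in these steps. Scml2, a germline Polycomb protein, read 32.4, 22.5 and 18.7 RPKM in LZ, 0.228, 0.111 and 0.112 in PD and 1.22, 1.35 and 1.27 in RS. It fell by 7.29 on the log2 scale (limma adjusted p = 6.3e-09), and the ubiquitin ligase gene Huwe1 and the deubiquitinase gene Usp9x went with it: Huwe1 fell by 7.21 and Usp9x fell by 6.89. Akap4, the main anchor protein of the fibrous sheath, is also among the 9. It read 26.9, 29.1 and 44.0 RPKM in LZ, 3.79, 2.97 and 10.5 in PD, 71.0, 64.8 and 90.1 in RS, 2778, 1371 and 2771 in EES and 2606, 2588 and 2777 in LES. Every stage differed from the next without overlap up to EES, and the rise from RS to EES was 4.88 ± 0.41 (log2 ± SE, limma adjusted p = 4.9e-07). Of its 6 transcripts 5 began at the first start, whose window holds TGATGTCA 35 bases before the RefSeq start and no CpG. The assembled start lay 41 bases upstream of that RefSeq start, so that the motif lies downstream of the assembled start.

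Genes known for testis promoters or germ cell isoforms formed a list of 20, of which 19 were found and 7 (36.8%) were isoform-rich; of all de novo genes 4.56% were. These 7 were Odf2, Akap4, Spag16, Sox5, Crem, Tcp11 and Spo11, and the list was chosen with earlier results of these data known. Over the 19 genes 9 rose and 3 fell from LZ to PD, 5 rose and 1 fell from PD to RS, and 9 rose and 6 fell from RS to EES. Over all tested genes 26.6% rose and 32.3% fell, 30.2% rose and 12.6% fell, and 23% rose and 47.3% fell in these steps. Sox5, an HMG box factor with a short testis form, had 6 transcripts, of which 5 began at the first start and 1 began 83838 bases downstream. It read 0.721, 0.979 and 1.47 RPKM in PD, 19.5, 23.4 and 24.0 in RS and 6.49, 82.2 and 10.5 in EES, where replicate 2 was above every other library. The rise from PD to RS was 4.44 ± 0.70 (log2 ± SE, limma adjusted p = 1.4e-04). Spag16, a protein of the axonemal central pair with a long and a short form, had 8 transcripts from its first start and 3 from starts 124413 and 124616 bases further downstream. It rose by 3.59 ± 0.41 from LZ to PD and fell by 1.74 from RS to EES (limma adjusted p = 4.4e-06 and 0.0015). Crem, the spermatid activator of CRE genes, had 9 transcripts and 5 starts and stood at 2.74 ± 0.76 RPKM in LZ, 8.46 ± 0.56 in PD, 13.7 ± 2.06 in RS, 8.77 ± 5.62 in EES and 5.69 ± 0.48 in LES (SD, n = 3).

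Of 41 regulators of splicing that were found, 4 were isoform-rich (9.76%): Srsf10, Rbm25, Luc7l2 and Clk4. Of the 39 tested, 1 rose and 21 fell from LZ to PD, 3 rose and 11 fell from PD to RS, and 2 rose and 32 fell from RS to EES, with medians of -1.27, -0.56 and -2.47 on the log2 scale. Over all tested genes 32.3%, 12.6% and 47.3% fell in these steps, with medians of -0.23, 0.23 and -1.05. Srsf10, an SR-like splicing factor, read 20.1, 16.9 and 20.5 RPKM in LZ, 8.35, 8.66 and 8.54 in PD, 2.78, 2.71 and 3.13 in RS and 0.416, 0.757 and 0.545 in EES. It fell in each of these steps without overlap between libraries. Clk4, a kinase of SR proteins with 16 transcripts that match 2 reference genes, rose at the end, from 7.13 ± 0.67 RPKM in RS to 16.0 ± 2.18 in EES (SD, n = 3). Of 20 factors of 3′ end processing 1 was isoform-rich, Sympk, the scaffold of the cleavage complex; of the 20, 14 fell and 0 rose from RS to EES, where 47.3% of all tested genes fell and 23% rose.

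Isoform-rich genes that match a lncRNA or no reference gene were counted apart from the coding ones. From PD to RS 30.2% of all tested genes rose and 12.6% fell, and from RS to EES 23% rose and 47.3% fell. Of the 200 tested lncRNA genes 103 rose (51.5%) and 13 fell (6.5%) from PD to RS, and 87 rose (43.5%) and 48 fell (24.0%) from RS to EES, with medians of 1.24 and 0.58. Of the 962 tested coding genes 214 rose (22.2%) and 57 fell (5.93%) from PD to RS, and 253 rose (26.3%) and 382 fell (39.7%) from RS to EES, with medians of 0.16 and -0.46. Of the 54 genes that matched no reference gene 35 rose (64.8%) and 2 fell (3.7%) from PD to RS, and 28 rose (51.9%) and 13 fell (24.1%) from RS to EES. The locus MSTRG.24502 (chromosome 8, 110495315 to 110504130, minus strand), with 7 transcripts and 3 starts, read 3.19, 4.25 and 4.92 RPKM in RS and 91.8, 49.2 and 93.3 in EES, a log2 fold change of 4.205 ± 0.27 (limma adjusted p = 9.6e-08). The locus MSTRG.17075 (chromosome 4, 70624964 to 70665168, plus strand), with 9 transcripts from 1 start, read 0.123, 0.206 and 0.518 RPKM in PD, 4.997, 5.10 and 5.81 in RS and 60.3, 44.8 and 58.7 in EES. The locus MSTRG.26121 (chromosome 9, 114340870 to 114368288, minus strand) was highest in PD, with 38.7, 34.7 and 38.7 RPKM, and read 3.04, 3.71 and 3.27 in RS. The difference between the coding genes and those that match a lncRNA or no reference gene was not tested. Whether the genes without a reference gene code for a protein was not tested either.

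The range between stages was set beside the number of starts. The median range of stage means was 4.36 on the log2 scale in the 256 genes with 1 start and 2.85 in the 310 genes with 4 or more. Of the genes with 1 start 8.59% were highest in LZ, and of those with 4 or more 20.6%. Genes with 1 start were less often coding (55.9% against 91.9%), and the part of this in the difference was not tested.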

How the data were processed

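RNA-seq libraries of 17 sorted germ cell samples were used: 15 of the 5 stages with 3 libraries each, and 2 single libraries for which values only are given. The tools named are STAR and Trim Galore and the builds GRCm38 and mm10, per the submitters' processing notes. The transcript annotation, whose coordinates are of the unit other, was assembled with StringTie 1.3.4d, per the file headers. Neither the counting tool nor the strandedness is named by the labels or headers. The values deposited by the authors are log2 values, log2 of 100 times RPKM plus 1; on this scale all values of up to 200 reads were whole multiples of 1 read within 0.05 in each library, once multiplied by exon length. The table of reference genes was not used.

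Transcripts, starts (5′ ends joined within 100 bases), exons and introns were counted from the annotation and set beside GENCODE M21 of the same build. Levels were fitted in limma 3.58.1 (R 4.3.3; eBayes with trend, 15 libraries, no block) on genes with at least 1 RPKM in 3 libraries, and adjusted over all 21515. The script was tested on simulated data. Members and lists were chosen with earlier results of these data known. Named genes are tested members of 1 reference gene without a clone-based symbol: the 8 with most transcripts, the 8 with most starts, the 3 highest in each stage, the 3 largest non-overlapping rises and falls of each step that reach 8 RPKM, up to 4 called members of each list, and 4 loci without a reference gene; not all are described, and 1 is not reported here. Spata6, Aven, Asb8, Eif5a, Akap3, Gsg1, Spata7, Crem and Clk4 were named after their values were seen, as were Tcp11, Spo11, Sympk and Ccna1 as the members of short counts. Start sequences had been planned from a genome; no genome sequence of the build was used here, so that windows come from RefSeq starts (GRCm38.p6) only. Depth was 90.6 to 159.2 M reads per library. Alternatives were the pseudocount, the filter, scaling, the replicate block, leaving out libraries, the number of transcripts and the joining of starts.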

Additional observations from a re-analysis of the deposited data

How the results depend on the processing

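Of 216 recomputed counts of isoform-rich genes, 199 stayed within 1.5 times the reported one. The balance from RS to EES turned with scaling: 373 rises and 451 falls became 477 and 339 with median centring and 423 and 358 with quantile normalization. With 10 or more transcripts as the rule, 213 genes passed the F test, 91 rose and 59 fell from LZ to PD, 78 rose and 10 fell from PD to RS and 90 rose and 63 fell from RS to EES. With 5 or more these were 2014, 798 and 505, 588 and 148, and 593 and 814; both sets take another number of genes, and with 10 or more rises outnumber falls from RS to EES. A pseudocount of 1 RPKM left 151 falls from LZ to PD. Falls from PD to RS came to 158 with median centring and 116 with quantile normalization; the cause was not tested. Leaving out each library in turn moved none of these counts by over 1.5 times. Of the named fold changes, that of Fam166a from LZ to PD reversed with quantile normalization (-0.00146). Another 30 called values no longer passed, 13 of them with a pseudocount of 1 RPKM, 5 with median centring and 7 with quantile normalization. The other 5 lost their call without 1 library: Fam166a (0.95) and MSTRG.24502 (0.92) from LZ to PD without LZ replicate 2, Luc7l2 from PD to RS without PD replicate 2 (-0.94) or 3 (-0.97), and MSTRG.26121 from RS to EES without EES replicate 1 (-1.76). Without LES replicate 1, 21 single-transcript genes rose from EES to LES. Joining starts within 500 bases put the median distance between outermost starts at 21221 bases, and counting every position at 5168. Replicate numbers did not pair the libraries: over 30 same-numbered pairs the correlation of deviations was -0.24 to 0.17, and 4 of 15 libraries correlated best with their own number. With the replicate block 1189 passed the F test, 488 rose and 290 fell from LZ to PD, 359 and 73 from PD to RS and 376 and 451 from RS to EES, and 0 from EES to LES. The fit without LZ replicate 3 and EES replicate 2, the quantile scaling of the stage shares and the motif TGATGTCA were chosen after seeing the data. Reads are summed over a gene, which limits what can be said of single transcripts.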
